A study of Rattus norvegicus with 16 samples.

Results

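The 10 genes described here encode acute phase and liver-type plasma proteins: Saa3, Fga, Fgb, Fgg, Lcn2, C3, Hp, Orm1, A2m and Apoh. They were taken by symbol, and all 10 symbols were on the array, with 13 of its 31042 probe sets other than controls (2 for Fga, 3 for Fgb and 1 for each other gene). The genes were chosen by their known role and with their measured log2 differences of AdNkx6.1 against Adβgal in view, in which Saa3 and Fga were among the highest. For these 10 genes, both comparisons that use the AdNkx6.1 arrays are therefore given as a description with no test.

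The acute phase response is the change in plasma protein production by the liver after infection or injury. Cytokines of the interleukin-6 family act through STAT3, and interleukin-1 acts through NF-κB and C/EBP factors, on the promoters of these genes in hepatocytes. Several of the proteins are also made outside the liver, in macrophages, fat or epithelia. In pancreatic islets lipocalin 2, complement C3 and haptoglobin are known mainly as genes that respond to inflammatory cytokines.

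The arrays were made from primary pancreatic islets of male Wistar rats aged 8 weeks, kept in RPMI with 10% serum and 8 mM glucose. In the AdNkx6.1 group (5 arrays) the islets received an adenovirus carrying Nkx6.1, a homeodomain transcription factor of beta cells. In the Adβgal group (6 arrays) they received an adenovirus carrying β-galactosidase, an enzyme used as a control cargo, and the untreated group (5 arrays) received no virus. Both viruses were given for 18 h at the same stated approximate particle concentration, and islets were collected 48 h after virus addition. Each sample was whole islet tissue, so beta cells, other endocrine cells, duct, exocrine, immune and vessel cells all contribute to the RNA. The titles call the arrays biological replicates but do not say whether each came from separate rats. The p-values therefore set differences against the spread between these samples, which is not shown to be the spread between rats. The treatment protocol speaks of 5 replicates per condition, while 6 Adβgal arrays were given.

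Intensities were log2 transformed, and 1 probe set was used per gene, which left 14217 genes. Median intensity per array lay between 265 and 296. The insulin genes Ins1 and Ins2 were bright in every group (mean log2 intensity of Ins1 14.69 in AdNkx6.1, 14.72 in Adβgal and 14.75 in untreated islets). The Nkx6-1 probe set was lower with AdNkx6.1 (11.43 ± 0.17, SD, n = 5) than in Adβgal (11.90 ± 0.19, n = 6) and untreated islets (12.23 ± 0.09, n = 5). No source given here places that probe set inside or outside the delivered sequence, so it checks nothing about delivery.

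Promoter sequences are shown for Saa3, Fga, Orm1 and Apoh, whose AdNkx6.1 arrays lay apart from all others, and for the fibrinogen neighbours Fgb and Fgg. They come from RefSeq (build GRCr8), which gave a promoter for 8 of the 10 genes, Hp and A2m being the others. Each line is the 250 bases before the annotated start site on the gene's own strand. Capitals mark matches on either strand to the motifs TTCNNNGAA (STAT), TTNNGNAA (a loose C/EBP form) and GTTAAT (a short HNF1 form, written ATTAAC on the opposite strand).
Saa3, chr1:106358431-106358680, minus strand: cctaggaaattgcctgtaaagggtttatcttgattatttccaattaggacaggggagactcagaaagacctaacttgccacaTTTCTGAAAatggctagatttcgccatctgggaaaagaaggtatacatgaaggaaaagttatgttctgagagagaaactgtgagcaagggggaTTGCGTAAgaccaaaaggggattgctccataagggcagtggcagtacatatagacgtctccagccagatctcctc
Fga, chr2:170671919-170672168, plus strand: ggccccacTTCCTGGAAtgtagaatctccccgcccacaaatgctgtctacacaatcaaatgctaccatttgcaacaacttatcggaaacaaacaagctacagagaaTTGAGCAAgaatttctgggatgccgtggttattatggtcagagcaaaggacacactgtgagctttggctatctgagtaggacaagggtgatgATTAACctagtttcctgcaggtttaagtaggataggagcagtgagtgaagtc
Fgb, chr2:170700876-170701125, minus strand: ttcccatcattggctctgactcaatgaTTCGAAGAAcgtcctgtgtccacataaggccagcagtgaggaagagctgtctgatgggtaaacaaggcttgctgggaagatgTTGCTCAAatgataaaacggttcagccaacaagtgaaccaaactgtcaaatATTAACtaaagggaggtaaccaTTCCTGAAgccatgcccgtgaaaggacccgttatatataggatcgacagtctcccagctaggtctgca
Fgg, chr2:170652833-170653082, plus strand: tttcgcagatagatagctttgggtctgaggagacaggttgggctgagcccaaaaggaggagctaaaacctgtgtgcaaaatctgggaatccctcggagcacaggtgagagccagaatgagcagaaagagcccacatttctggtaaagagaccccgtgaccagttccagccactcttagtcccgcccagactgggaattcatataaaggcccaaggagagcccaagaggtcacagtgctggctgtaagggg
Orm1, chr5:81788259-81788508, plus strand: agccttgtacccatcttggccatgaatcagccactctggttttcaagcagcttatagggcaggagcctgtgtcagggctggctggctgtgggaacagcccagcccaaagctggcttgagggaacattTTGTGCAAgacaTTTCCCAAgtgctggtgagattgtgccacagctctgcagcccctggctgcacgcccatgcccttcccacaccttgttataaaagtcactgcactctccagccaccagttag
Apoh, chr10:93841742-93841991, plus strand: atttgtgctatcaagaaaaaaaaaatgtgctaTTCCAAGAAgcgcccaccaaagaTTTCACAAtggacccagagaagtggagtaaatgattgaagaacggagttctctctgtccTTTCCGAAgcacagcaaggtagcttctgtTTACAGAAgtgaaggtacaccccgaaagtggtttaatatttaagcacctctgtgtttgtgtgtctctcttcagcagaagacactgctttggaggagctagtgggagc

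The STAT form was present in 3 of the 8 promoters (Fga, Fgb and Apoh), against 7.68% of all 33360 promoters in the table. In Fga it began 242 bases before the start site, in Fgb 223 bases and in Apoh 218 bases. The loose C/EBP form was present in 7 of the 8 promoters, against 37.2% of all promoters, and Fgg was the exception. In Saa3 the first run of capitals holds 2 overlapping C/EBP matches, 168 and 167 bases before the start, and the second run lies 75 bases before it. The short HNF1 form was in Fga and Fgb, 52 and 90 bases before the start, against 6.46% of all promoters. The NF-κB forms GGGANTTCC and GGGANTTTC (2.35% of all promoters) and the homeodomain core TAATTA (4.87%) were in 0 of the 8 windows. A match is a run of letters and not a measured binding site, and no match says only that these letters are not in this window. Fga, whose AdNkx6.1 arrays lay apart, and Fgb, whose groups overlapped, both held the STAT, C/EBP and HNF1 letters.

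In AdNkx6.1 islets Saa3, Fga, Orm1 and A2m were higher and Apoh was lower than in Adβgal islets, while Fgb, Fgg, Lcn2, C3 and Hp overlapped between these groups. For the 5 genes that were higher or lower, every AdNkx6.1 array lay on one side of every Adβgal array. The same limma call rule (adjusted p under 0.05) was met by 4 higher and 1 lower of the 10 genes, in a comparison where it was met by 25.0% of all genes (16.6% higher and 8.48% lower). Arrays of the 2 groups did not overlap for 14.2% of all genes (10.4% higher and 3.78% lower). Since this comparison chose the genes, nothing is read from their count. In whole islets, a change in the number of cells of a type and a change in RNA per cell cannot be told apart.

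**Figure D1:**
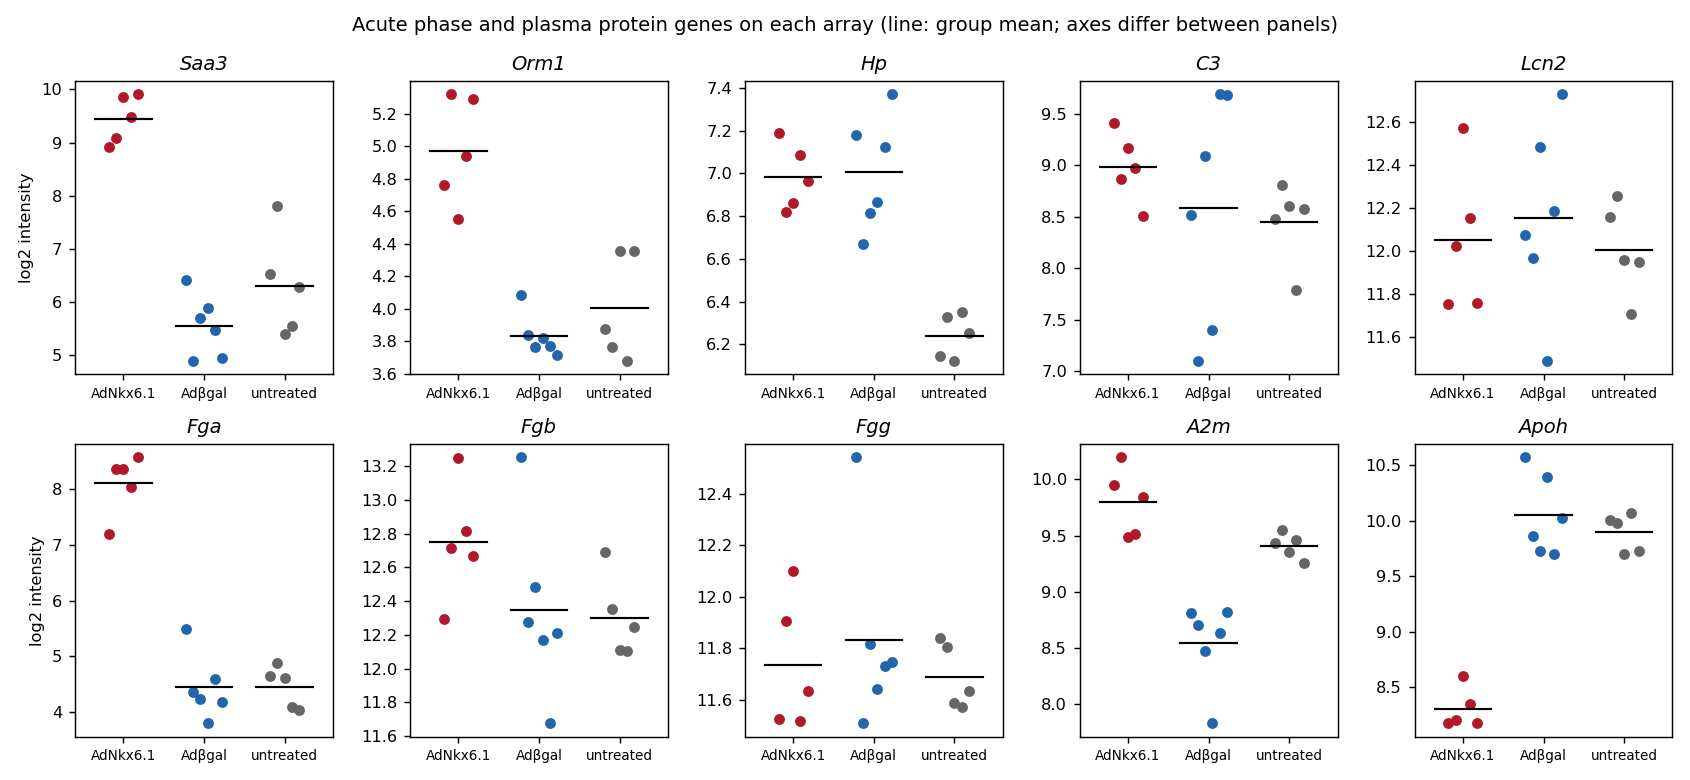
log2 intensity (vertical axis, its range differing between panels) of the 10 acute phase and plasma protein genes on each array, with AdNkx6.1 left (5 arrays), Adβgal in the middle (6) and untreated right (5); lines are group means. The AdNkx6.1 arrays of Saa3 and Fga lie above all others, those of Apoh lie below all others, and the untreated arrays of Hp lie below both virus groups.

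Saa3 encodes a serum amyloid A of the acute phase that mice make largely outside the liver, in macrophages and fat. Its log2 intensity on the AdNkx6.1 arrays was 8.91, 9.09, 9.85, 9.49 and 9.91. The Adβgal arrays ranged from 4.88 to 6.40 with a median of 5.58, and the untreated arrays read 6.51, 7.80, 5.38, 5.55 and 6.28. The AdNkx6.1 arrays were all above the other 11, and untreated replicate 2 was the highest of those. The difference was 3.91 ± 0.38 on the log2 scale (SE) against Adβgal and 3.15 ± 0.40 against untreated. The mean brightness of the Saa3 probe set was above 62.6% of all probe sets in AdNkx6.1 islets, 26.1% in Adβgal and 33.8% in untreated islets. With no detection call the lower levels of Saa3, Orm1 and Fga are not shown to be above background, so their differences are given as measured log2 intensities, with no fold change.

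Orm1 encodes orosomucoid, or alpha-1-acid glycoprotein, a drug-binding plasma protein. Its AdNkx6.1 arrays read 4.76, 5.32, 4.55, 4.94 and 5.29, the Adβgal arrays ranged from 3.72 to 4.09 (median 3.80), and the untreated arrays read 3.88, 3.77, 4.36, 3.68 and 4.36. All AdNkx6.1 arrays were the higher ones, by 1.14 ± 0.15 (SE) against Adβgal and 0.96 ± 0.16 against untreated. This was a dim probe set, whose mean was above only 19.6% of probe sets in AdNkx6.1, 6.36% in Adβgal and 8.41% in untreated islets. Its Adβgal mean of 3.83 was level with the median of the olfactory receptor genes, 3.82. With 16 added to every intensity before the log, the differences were 0.65 and 0.56.

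Hp encodes haptoglobin, which binds free haemoglobin. Its arrays read 7.19, 6.82, 6.86, 7.09 and 6.96 in AdNkx6.1 islets and 6.67 to 7.37 (median 6.99) in Adβgal islets, against 6.15, 6.33, 6.12, 6.35 and 6.25 in untreated islets. Every array of either virus group was above every untreated array, and the virus groups overlapped. AdNkx6.1 differed from Adβgal by -0.02 ± 0.11 and from untreated by 0.74 ± 0.12.

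Lcn2 encodes lipocalin 2, which sequesters bacterial iron carriers. It was bright everywhere, at 11.76, 12.02, 12.58, 12.15 and 11.76 in AdNkx6.1 islets, 11.49 to 12.73 (median 12.13) in Adβgal islets and 12.16, 12.26, 11.96, 11.71 and 11.95 in untreated islets. The 3 groups overlapped, with differences of -0.10 ± 0.20 for AdNkx6.1 against Adβgal and 0.05 ± 0.20 against untreated.

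C3 encodes the central complement component. The AdNkx6.1 arrays read 9.41, 8.86, 9.17, 8.97 and 8.51, the Adβgal arrays 8.52, 7.10, 9.09, 7.40, 9.69 and 9.68, and the untreated arrays 8.48, 8.80, 8.60, 7.79 and 8.57. The Adβgal arrays were spread most widely, with an SD of 1.12 against 0.34 in AdNkx6.1 and 0.39 in untreated islets, and they covered the range of both other groups. The differences were 0.40 ± 0.41 for AdNkx6.1 against Adβgal and 0.53 ± 0.43 against untreated. Leaving out 1 array moved the first of these: it was 0.11 without Adβgal replicate 2, 0.17 without replicate 4, and 0.63 and 0.62 without replicates 5 and 6.

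The fibrinogen genes Fga, Fgb and Fgg encode the alpha, beta and gamma chains of the clotting protein, which is assembled from all 3. They are neighbours on rat chromosome 2, in the order Lrat, Fgg, Fga, Fgb, Plrg1 in GRCr8. By the probe set used for each, the alpha chain gene stood apart from the genes on either side. Fga read 7.19, 8.35, 8.36, 8.03 and 8.57 on the AdNkx6.1 arrays. On the Adβgal arrays it ranged from 3.80 to 5.50 (median 4.30), and on the untreated arrays it read 4.65, 4.88, 4.60, 4.10 and 4.04. All AdNkx6.1 arrays lay above the other 11, by 3.65 ± 0.28 against Adβgal and 3.64 ± 0.30 against untreated. The mean Fga brightness was above 49.9% of probe sets in AdNkx6.1 islets, 13.6% in Adβgal and 13.7% in untreated islets. A second Fga probe set ranged from 6.21 to 6.42 in AdNkx6.1, 4.50 to 4.90 in Adβgal and 4.26 to 4.84 in untreated islets, with smaller differences of 1.63 ± 0.10 and 1.69 ± 0.11.

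Fgb read 12.29, 12.72, 13.25, 12.82 and 12.67 in AdNkx6.1 islets, 11.67 to 13.25 (median 12.24) in Adβgal islets, and 12.69, 12.35, 12.11, 12.10 and 12.25 in untreated islets. Adβgal replicate 1 was level with the highest AdNkx6.1 array, and the groups overlapped. The difference of AdNkx6.1 against Adβgal was 0.40 ± 0.22, and 0.59 without Adβgal replicate 1; against untreated it was 0.45 ± 0.23. The other 2 Fgb probe sets were dim, at group means of 3.18 to 4.23, and show no readable level. The probe sets thus disagree on the Fgb level, and its contrast with Fga rests on the brightest alone.

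Fgg read 11.53, 11.90, 12.10, 11.52 and 11.63 in AdNkx6.1 islets, 11.51 to 12.54 (median 11.74) in Adβgal islets and 11.84, 11.81, 11.59, 11.57 and 11.63 in untreated islets. The 3 groups overlapped, and AdNkx6.1 differed by -0.09 ± 0.16 from Adβgal and by 0.05 ± 0.16 from untreated. Plrg1, the next gene beyond Fgb and a splicing factor gene, averaged 12.13 in AdNkx6.1, 11.98 in Adβgal and 12.01 in untreated islets.

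A2m encodes alpha-2-macroglobulin, a broad protease trap that is a main acute phase protein in rats. Its arrays read 9.95, 10.20, 9.49, 9.51 and 9.84 in AdNkx6.1 islets, 7.83 to 8.82 (median 8.67) in Adβgal islets and 9.44, 9.55, 9.35, 9.46 and 9.25 in untreated islets. The Adβgal arrays were the low ones, below every array of both other groups, and the lowest AdNkx6.1 arrays were within the untreated range. AdNkx6.1 differed by 1.25 ± 0.17 from Adβgal (2.39-fold) and by 0.39 ± 0.17 from untreated (1.31-fold), so the size of the A2m difference depended on which group it was set against.

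Apoh encodes beta-2-glycoprotein I, a phospholipid-binding plasma protein that acts on clotting. It was the gene of the set that was lower with AdNkx6.1, at 8.18, 8.21, 8.60, 8.35 and 8.18, against 9.71 to 10.58 (median 9.95) in Adβgal islets and 10.01, 9.98, 9.71, 10.07 and 9.73 in untreated islets. All AdNkx6.1 arrays lay below the other 11. The difference was -1.75 ± 0.15 against Adβgal (3.36-fold lower) and -1.60 ± 0.16 against untreated (3.02-fold lower).

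**Figure D2:**
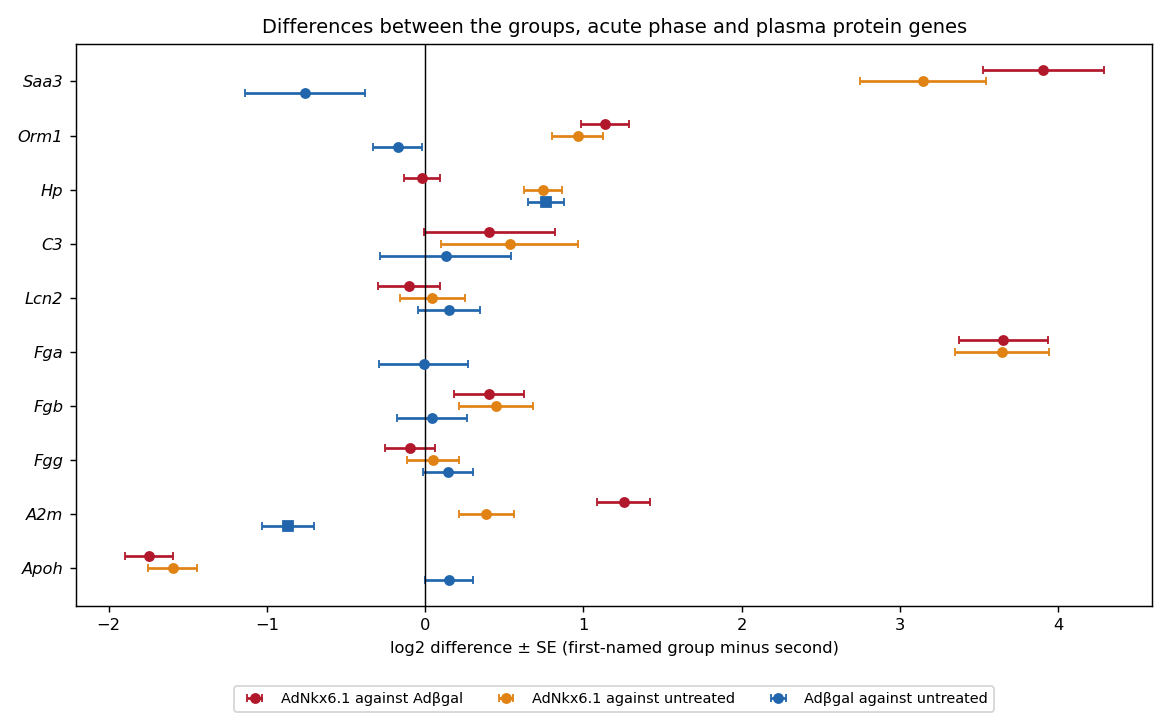
log2 difference with its standard error (horizontal axis) for each gene (vertical axis) in 3 comparisons, the first-named group minus the second; squares mark the genes past an adjusted p of 0.05 in Adβgal against untreated, the comparison in which these genes were tested. Saa3 and Fga reach 3.91 and 3.65 for AdNkx6.1 against Adβgal, Apoh reaches -1.75, and the squares are Hp at 0.76 and A2m at -0.87.

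A fixed brightness limit for dim probe sets (the 95th percentile of the 6 olfactory receptor genes measured, a log2 intensity of 9.20) was of little use, since those genes ran from 3.0 to 9.38 with a median of 3.82. By it, 16 of the 30 gene and group means were dim, and Fga, C3, Hp and Orm1 were dim in every group. The deposited values hold no detection calls, so a low intensity is not shown here to be absence.

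The comparison of AdNkx6.1 with untreated islets shares the AdNkx6.1 arrays with the one above. The limma rule was met by 4 higher (Saa3, Fga, Hp and Orm1) and 1 lower (Apoh) of the 10 genes, in a comparison where 30.7% of all genes met it (16.9% higher and 13.8% lower). The arrays of these 5 genes did not overlap between the groups, which held for 32.1% of all genes (17.4% higher and 14.7% lower). The 10 genes had a median difference of 0.49, against -0.01 over all genes. Against Adβgal the medians were 0.40 and 0.02. The genes were chosen with differences of the AdNkx6.1 arrays in view, so nothing is read from these counts and medians.

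The comparison of Adβgal with untreated islets sets islets given the control virus with its β-galactosidase cargo against islets given no virus. Virus and cargo cannot be told apart in it. The choice of the genes did not use this comparison, though it shares the Adβgal arrays. Of the 10 genes, Hp was higher and A2m lower in Adβgal islets, while the other 8 did not pass the test. Over all genes, 7.01% passed (2.84% higher and 4.17% lower). Hp was 0.76 ± 0.11 higher (SE), with a limma adjusted p of 0.00158 (Benjamini-Hochberg over 14217 genes), and 6 of 6 Adβgal arrays were above all untreated arrays. A2m was lower by a log2 difference of -0.87 ± 0.17 (1.82-fold; limma adjusted p = 0.00645), and 6 of 6 Adβgal arrays were below all untreated arrays. Both calls held under all 20 alternatives tried, with limma adjusted p up to 0.0116 for Hp and 0.023 for A2m. The low Adβgal arrays of A2m also enter the comparison that was in view when the genes were chosen. The A2m p-value is therefore not independent of that choice, and nothing is read from the number of genes that passed. Arrays of the 2 groups did not overlap for 6.88% of all genes (2.05% higher and 4.83% lower).

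Among the 8 genes that did not pass, Saa3 had the widest difference, at -0.76 ± 0.38 (limma adjusted p = 0.228) and the untreated arrays themselves running from 5.38 to 7.80. Fga differed by -0.01 ± 0.28 (limma adjusted p = 0.988), Fgb by 0.04 ± 0.22 (0.923) and Fgg by 0.14 ± 0.16 (0.604). Lcn2 differed by 0.15 ± 0.20 (limma adjusted p = 0.665), C3 by 0.13 ± 0.41 (0.875), Orm1 by -0.17 ± 0.15 (0.51) and Apoh by 0.15 ± 0.15 (0.56). The standard error of C3 leaves room for a difference of the size seen for Hp.

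Markers of other cell types varied most within the Adβgal group. The level of 22 acinar genes, as mean log2 intensity minus its mean over 16 arrays, ranged from -1.23 to 0.45 in AdNkx6.1, -1.10 to 1.74 in Adβgal and -0.74 to 0.08 in untreated islets. The level of 26 macrophage and leukocyte genes ranged from -0.36 to 0.09 in AdNkx6.1, from -0.22 to 0.78 in Adβgal and from -0.18 to 0.05 in untreated islets. Adβgal replicates 4, 5 and 6 were the 3 highest arrays of both lists, and Adβgal replicates 5 and 6 were also the highest C3 arrays, while replicate 4 was among the lowest. The part of these cell types in the results was not tested. Without these 3 arrays the C3 difference of AdNkx6.1 against Adβgal was 0.75, Saa3 was at 3.79, Fga at 3.40, Orm1 at 1.07, A2m at 1.14 and Apoh at -1.75. In the same fit Hp was 0.65 higher and A2m lower by -0.75 in Adβgal against untreated islets (limma adjusted p = 0.0116 and 0.018), while Fgb differed from Adβgal by 0.08 in AdNkx6.1 islets.

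The level of 21 hepatocyte genes ranged from -0.01 to 0.05 in AdNkx6.1, -0.14 to 0.10 in Adβgal and 0.00 to 0.07 in untreated islets. Alb, the albumin gene, averaged 4.77 in AdNkx6.1, 4.79 in Adβgal and 4.84 in untreated islets, above 17.4%, 17.7% and 18.1% of probe sets. Cps1, the urea cycle entry enzyme, averaged 4.16 in AdNkx6.1, 4.04 in Adβgal and 4.19 in untreated islets. Neither passed the test in any of the 3 comparisons. Of the 21, 4 rose and 2 fell with AdNkx6.1 against Adβgal (28.6%, against 25.0% of all genes), with a median difference of -0.07. Asgr1, the hepatocyte lectin receptor, rose by 1.37 ± 0.19 (limma adjusted p = 6.39e-05; 0.90 with 16 added to each intensity), Hgd, an enzyme of tyrosine breakdown, by 1.11 ± 0.13 (9.8e-06), and Hpd, of the same pathway, by 0.55 ± 0.12 (0.00233). Arg1, a urea cycle enzyme, fell by 0.46 on the log2 scale (limma adjusted p = 0.00596).

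**Figure D3:**
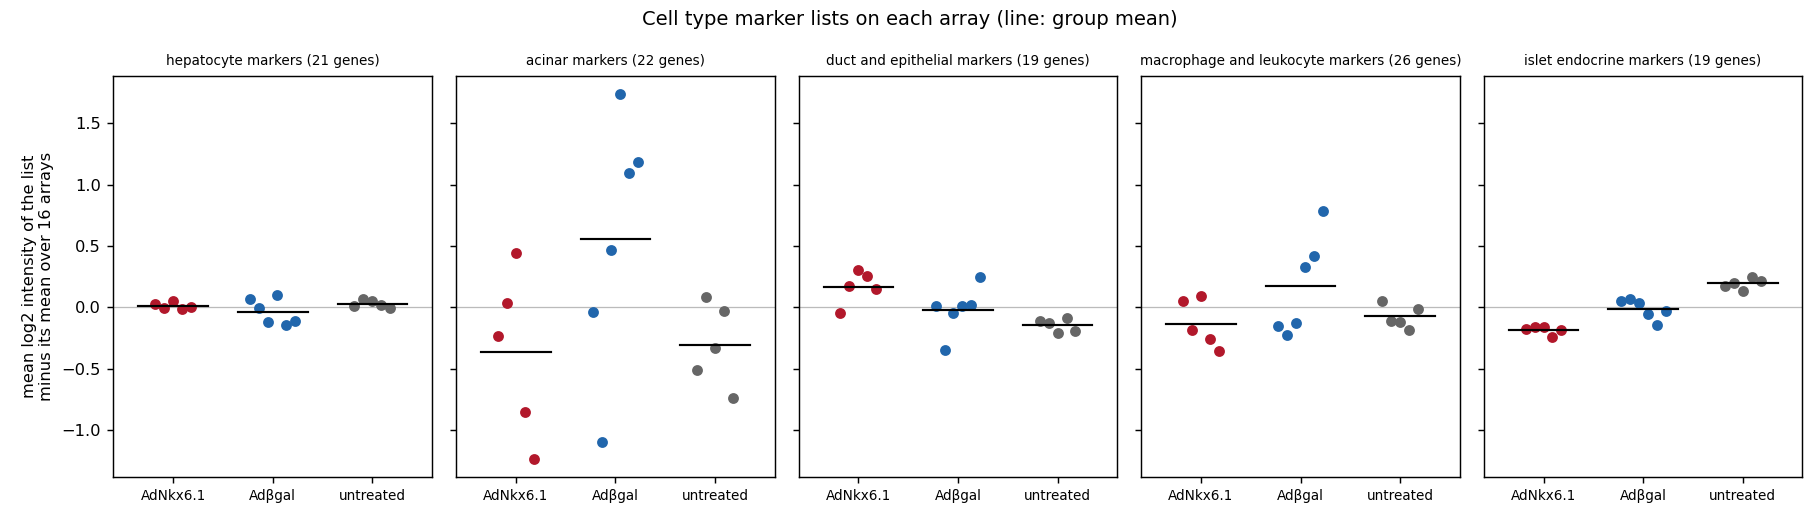
Mean log2 intensity of 5 cell type marker lists minus the list's mean over 16 arrays (vertical axis) on each array, with AdNkx6.1 left, Adβgal in the middle and untreated right; lines are group means. The acinar list reaches 1.74 on an Adβgal array, while the hepatocyte list stays between -0.14 and 0.10 on all arrays.

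Of 19 duct and epithelial genes, 6 rose and 1 fell with AdNkx6.1 against Adβgal (36.8%, against 25.0% of all genes), with a median difference of 0.30. The 1 that fell was Pigr, which differed by -1.29 against untreated islets (limma adjusted p = 0.000327) and by -0.74 against Adβgal (0.0169). Krt8 and Krt18, the keratins of simple epithelia, rose by 0.57 ± 0.06 and 0.53 ± 0.07 (limma adjusted p = 1.76e-06 and 2.3e-05), and Krt19, which defines duct cells, averaged 10.84 in AdNkx6.1, 10.85 in Adβgal and 10.42 in untreated islets. The list level ranged from -0.05 to 0.30 in AdNkx6.1, -0.35 to 0.24 in Adβgal and -0.21 to -0.09 in untreated islets, and its part in the Saa3, Fga and Orm1 differences was not tested. Of 19 islet endocrine genes, 15 fell with AdNkx6.1 against untreated islets (78.9%, against 30.7% of all genes) and 5 fell against Adβgal (26.3%, against 25.0%), and the others did not pass. The count against Adβgal ran from 2 (without AdNkx6.1 replicate 5) to 10 (with array weights), and was 9 without Adβgal replicates 4, 5 and 6.

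The counts of the other marker lists depended on which arrays and settings were used. Acinar genes had a median difference of -0.91 for AdNkx6.1 against Adβgal and 0.96 for Adβgal against untreated islets, against 0.02 and -0.04 over all genes. In the first comparison 3 of 22 fell (13.6%, against 25.0% of all genes). However, 17 fell without Adβgal replicate 2, and 1 fell without Adβgal replicates 4, 5 and 6. In the second comparison 1 of 22 fell (4.55%, against 7.01% of all genes), while 11 rose without Adβgal replicate 2. The shares of all genes under the alternatives are not set beside these counts. Of 26 leukocyte genes, 1 rose and 1 fell with AdNkx6.1 against Adβgal (7.69%, against 25.0% of all genes). The number that fell ran from 0 (without Adβgal replicates 4, 5 and 6) to 6 (with array weights). Of 18 stellate and fibroblast genes 2 fell (11.1%, against 25.0%), with 0 to 3 over the alternatives. None of 13 endothelial genes passed limma's test there (against 25.0% of all genes). Of these, 1 had an unadjusted p under 0.05, and 3 fell without Adβgal replicate 1.

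Other acute phase and plasma protein genes moved in both directions. Of 45 measured, 4 rose and 6 fell with AdNkx6.1 against Adβgal (22.2%, against 25.0% of all genes; median -0.03), 4 rose and 11 fell against untreated islets (33.3%, against 30.7%), and 2 rose and 6 fell with Adβgal against untreated (17.8%, against 7.01%). Without Adβgal replicates 4, 5 and 6 the last of these counts was 0 rises and 3 falls, and without Adβgal replicate 1 there were 10 falls. Hpx encodes hemopexin, the plasma heme carrier. Its AdNkx6.1 arrays read 7.79, 8.01, 8.87, 7.62 and 7.79, the Adβgal arrays 5.15 to 6.104, and the untreated arrays 6.16, 5.86, 5.76, 6.07 and 5.89. Hpx rose by 2.43 ± 0.21 against Adβgal (limma adjusted p = 4.73e-07) and by 2.07 ± 0.22 against untreated islets (3.55e-06), with all AdNkx6.1 arrays above the others.

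Apcs, serum amyloid P component, and Rbp4, the plasma retinol carrier, went the other way. Apcs averaged 7.46 ± 0.42 in AdNkx6.1 (SD, n = 5), 8.50 ± 0.34 in Adβgal (n = 6) and 9.11 ± 0.21 in untreated islets (n = 5), and its difference against Adβgal was -1.04 ± 0.19 (SE; limma adjusted p = 0.000702). Rbp4 averaged 10.62 ± 0.22 in AdNkx6.1, 11.76 ± 0.28 in Adβgal and 11.98 ± 0.11 in untreated islets, a difference of -1.14 ± 0.13 against Adβgal (limma adjusted p = 9.14e-06). Serpina1, the antitrypsin gene, fell with both viruses: it averaged 10.64 in AdNkx6.1, 11.15 in Adβgal and 11.90 in untreated islets, and the difference of Adβgal against untreated was -0.76 ± 0.13 (limma adjusted p = 0.00404). Igfbp1, an insulin-like growth factor carrier, was lower than in untreated islets in both virus groups. The difference was -0.87 ± 0.12 for Adβgal (limma adjusted p = 0.000525) and -0.425 for AdNkx6.1 (0.0144). It was higher by 0.45 ± 0.12 with AdNkx6.1 against Adβgal (limma adjusted p = 0.00965).

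**Figure D4:**
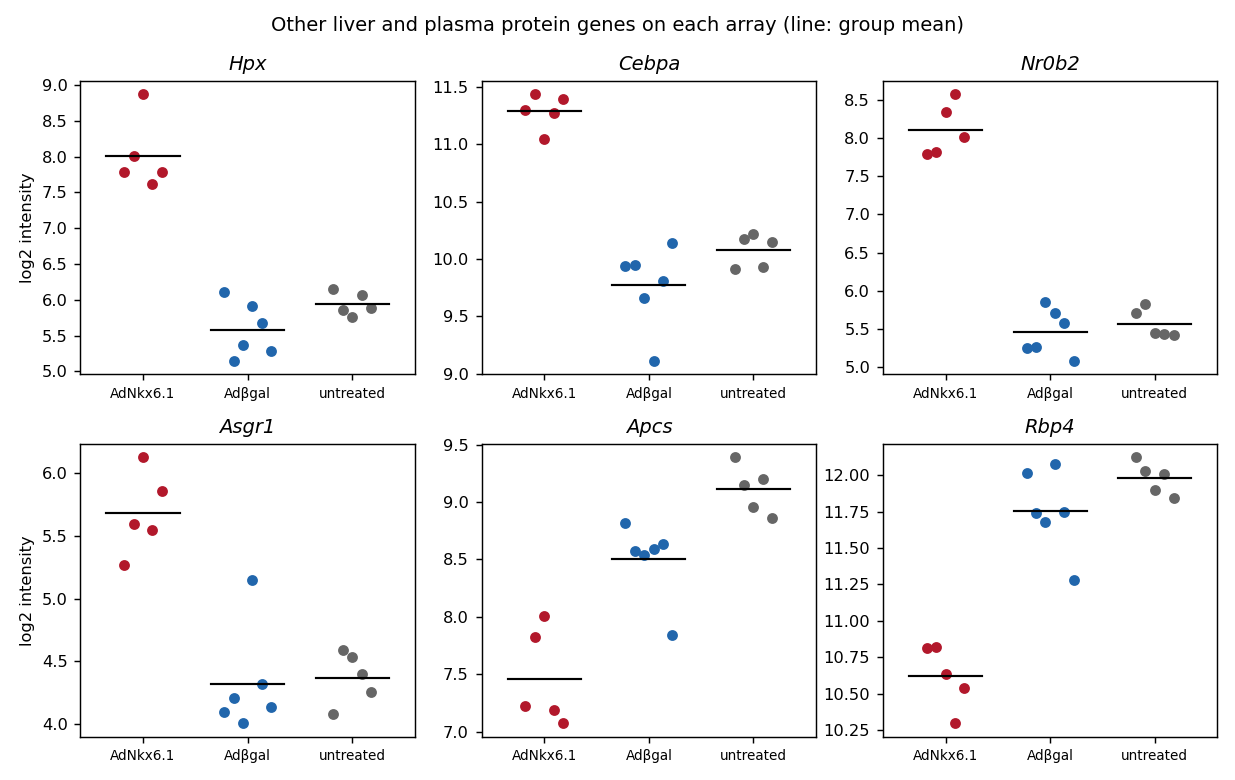
log2 intensity (vertical axis, its range differing between panels) of 6 further liver and plasma protein genes on each array, with AdNkx6.1 left (5 arrays), Adβgal in the middle (6) and untreated right (5); lines are group means. Hpx, Cebpa, Nr0b2 and Asgr1 are higher on all AdNkx6.1 arrays than on all others, and Apcs and Rbp4 are lower than on all untreated arrays.

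Of 24 coagulation, kinin and fibrinolysis genes measured, 2 rose and 6 fell with AdNkx6.1 against Adβgal (33.3%, against 25.0% of all genes; median -0.13), 3 rose and 7 fell against untreated islets (41.7%, against 30.7%), and 2 rose and 2 fell with Adβgal against untreated (16.7%, against 7.01%). Without Adβgal replicates 4, 5 and 6 the last of these counts was 0 rises and 2 falls, and that of AdNkx6.1 against Adβgal was 1 rise and 7 falls. F2, prothrombin, differed by -0.60 ± 0.10 against Adβgal (limma adjusted p = 0.000464) and Cpb2, an inhibitor of clot lysis, by -0.67 ± 0.12 (0.000425). Plaur, the urokinase receptor, rose by 0.63 ± 0.12 (limma adjusted p = 0.00142), a call lost when all its probe sets were averaged (0.23). Proc, the anticoagulant protein C, was lower in Adβgal than in untreated islets by -0.82 ± 0.16 (limma adjusted p = 0.00685).

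Of 24 complement genes other than C3, 1 rose and 2 fell with AdNkx6.1 against Adβgal (12.5%, against 25.0% of all genes), 3 rose and 1 fell against untreated islets (16.7%, against 30.7%), and 2 rose with Adβgal against untreated (8.33%, against 7.01%). Without Adβgal replicates 4, 5 and 6 the balance against Adβgal turned, to 4 rises and 1 fall, and neither rise with Adβgal against untreated was called. C1s, a protease of the first complement component, rose by 0.81 ± 0.22 against Adβgal (limma adjusted p = 0.0121), and by 1.29 without Adβgal replicates 4, 5 and 6. Cfp, properdin, a leukocyte product, differed by -1.12 ± 0.26 (limma adjusted p = 0.00416), and by -0.55 without those arrays.

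Of the cytokines, receptors and signal carriers of the acute phase response, 42 were measured, and 9 rose and 1 fell with AdNkx6.1 against Adβgal (23.8%, against 25.0% of all genes; median 0.11). Against untreated islets 8 rose and 2 fell (23.8%, against 30.7% of all genes). With Adβgal against untreated 1 rose and 1 fell (4.76%, against 7.01%), neither of which remained without Adβgal replicates 4, 5 and 6. Ctf1, cardiotrophin 1 of the interleukin-6 family, averaged 8.41 ± 0.14 in AdNkx6.1, 7.18 ± 0.35 in Adβgal and 7.27 ± 0.16 in untreated islets, and rose by 1.23 ± 0.14 against Adβgal (SE; limma adjusted p = 1e-05). Il17rc, a chain of the interleukin-17 receptor, rose by 0.82 ± 0.13 (limma adjusted p = 0.000156), and Tyk2, a kinase of cytokine receptors, by 0.46 ± 0.09 (0.000751). Cish and Socs1, feedback inhibitors of that signalling, rose by 0.62 ± 0.12 and 0.50 ± 0.09 (limma adjusted p = 0.00107 and 0.000402), though Socs1 was not called when its probe sets were averaged (0.21).

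Of 20 liver and endoderm transcription factors measured, 4 rose and 1 fell with AdNkx6.1 against Adβgal (25.0%, the share of all genes). Cebpa, the C/EBP alpha gene of hepatocytes and fat cells, read 11.30, 11.44, 11.04, 11.28 and 11.39 in AdNkx6.1 islets, 9.11 to 10.14 in Adβgal islets and 9.91, 10.18, 10.22, 9.93 and 10.15 in untreated islets. All AdNkx6.1 arrays were the high ones, and the rise was 1.52 ± 0.14 against Adβgal (2.87-fold, limma adjusted p = 1.42e-06) and 1.21 ± 0.15 against untreated islets (1.84e-05). Nr0b2, the nuclear receptor SHP that represses bile acid synthesis genes in liver, read 7.79, 7.82, 8.35, 8.57 and 8.01 in AdNkx6.1 islets, 5.08 to 5.86 in Adβgal islets and 5.71, 5.83, 5.45, 5.43 and 5.42 in untreated islets. It rose by 2.65 ± 0.16 against Adβgal (limma adjusted p = 1.29e-08). Nr1h4, the bile acid receptor FXR, differed by -0.62 ± 0.11 (limma adjusted p = 0.000637). Gata4 rose by 0.79 against Adβgal (limma adjusted p = 1.98e-05), and by 0.32 at the lowest over the alternatives. Hnf4a was lower with AdNkx6.1 than in untreated islets by -0.57 (limma adjusted p = 0.000165), and did not pass against Adβgal (-0.23, 0.0642). It was also lower in Adβgal than in untreated islets, by -0.34 (limma adjusted p = 0.0264), a call lost in 7 of 20 alternatives. Foxa2, a factor of islets and liver, did not pass against Adβgal (-0.05 ± 0.07, limma adjusted p = 0.631), and was lower in Adβgal than in untreated islets by -0.44 ± 0.07 (0.0025).

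Of 22 receptors and binding partners of the 10 proteins, 2 rose and 2 fell with AdNkx6.1 against Adβgal (18.2%, against 25.0% of all genes). With Adβgal against untreated islets 2 rose and 1 fell (13.6%, against 7.01%). Without Adβgal replicates 4, 5 and 6 these counts were 4 rises and 2 falls, and 2 rises. Lrp2, megalin, an uptake receptor that binds lipocalin 2 and beta-2-glycoprotein I, differed by -0.68 ± 0.13 against Adβgal (limma adjusted p = 0.000854). Hbb, the haemoglobin beta chain that haptoglobin binds, rose by 0.88 ± 0.14 with Adβgal against untreated islets (limma adjusted p = 0.0026). It averaged 8.33 in AdNkx6.1, 8.39 in Adβgal and 7.51 in untreated islets.

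Among themselves the 10 genes fell into few shared patterns over the 16 arrays. Pearson's r is given as a description, since the arrays share the group differences that chose the genes. Saa3 and Fga had an r of 0.937, Fga and Orm1 0.891 and Saa3 and Orm1 0.826, while Fga and Apoh had -0.898. Fga had an r of 0.606 with its neighbour Fgb and 0.132 with Fgg, and Fgb and Fgg had 0.675 with each other. Lcn2 and C3 had an r of 0.631.

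The genes most alike to each member over the same 16 arrays differed between members. For Fga they were Slc44a4 (r = 0.975), Vgf (0.971) and Chst8 (0.971), and for Saa3 they were Rbp2 (0.952), Pde4c (0.946) and Slc44a4 (0.945). For Apoh they were Fgfr2 (0.976), Ptprd (0.968) and Il15 (0.967), for A2m Adgrg1 (0.964), Tmem255b (0.955) and Spata2L (0.953), and for Orm1 Plk5 (0.927), Acot1 (0.920) and Bpifa5 (0.915). For Hp they were Slfn5 (0.936), Sp100 (0.934) and LOC100910973 (0.933). Slfn5 and Sp100 are known as genes induced by interferon. Lcn2 was most like Fcer1g (0.782), Mpeg1 (0.752) and Cdyl (0.709), of which the first pair are macrophage genes. For C3 they were Nectin4 (0.880), Rab7b (0.830) and Ildr2 (0.802), for Fgb Ppp6r3 (0.893), Psmb4 (0.886) and H2ac25 (0.886), and for Fgg Bdkrb1 (0.834), Dnm3 (0.773) and Il11 (0.758).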

How the data were processed

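The deposited table holds linear microarray intensity values for 31099 probe sets on 16 arrays (biotin-labelled total RNA). RMA, which corrects background, normalizes by quantiles and summarises probes, is named in the submitters' processing notes with no version. No detection calls, scan dates or slides were given. Control probe sets (57) were left out, and log2 was taken with no pseudocount. Of the other probe sets, 20826 had 1 gene symbol in the platform annotation, 436 several and 9780 none. The probe set with the highest mean was kept for each of 14217 genes.

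One limma model (3.58.1, R 4.3.3; lmFit, contrasts.fit, eBayes) was fitted to all 16 arrays with group as the only term, after tests on simulated data. P-values were two-sided and adjusted by Benjamini-Hochberg over all genes of a comparison, with a threshold of 0.05. The 10 genes, the 13 gene lists and the motifs were chosen with earlier results of these data known. Genes named from a list were drawn from its up to 6 with the smallest p in any comparison, plus genes that define a cell type. Not all of these are named. For each of the 10 genes the 3 most correlated others are named. Plrg1 was named as the gene next to Fgb. Lists are described by counts and medians, without set tests. The number of arrays limits the precision.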

Additional observations from a re-analysis of the deposited data

Results flagged for a closer look

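Of 30 gene and group combinations, 3 held an array far from the rest of its group, and chance alone flags about 1 in 20. Fgg read 12.54 on Adβgal replicate 1, against 11.51 to 11.82 on the other Adβgal arrays. Orm1 read 4.09 on the same array, against 3.72 to 3.84 on the others. A2m read 7.83 on Adβgal replicate 4, against 8.47 to 8.82 on the others.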

How the results depend on the processing

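No called difference of the 10 genes changed sign, and the Hp and A2m calls of Adβgal against untreated islets held, under the alternatives run. For AdNkx6.1 against untreated islets, 8 of the 10 genes met the call rule when only these 2 groups were fitted, against 5 in all 3 groups. In the fit of all 3 groups 30.7% of all genes met it, and the share in the 2-group fit is not given here. The genes were chosen with the AdNkx6.1 arrays in view, so nothing is read from either count. Over all genes, array weights gave 7469 calls in that comparison, against 4360. For Adβgal against untreated islets, 997 genes passed. Leaving out 1 array gave 509 (untreated replicate 5) to 1503 (Adβgal replicate 2), with 647 without Adβgal replicate 6, and 620, 532 and 526 without untreated replicates 1, 2 and 4. The count was 552 without Adβgal replicates 4, 5 and 6, 521 with only these groups and 1790 with array weights. A replicate block gave 393 genes there, 2855 against 3560 for AdNkx6.1 against Adβgal, and 3811 against 4360 for AdNkx6.1 against untreated. Arrays of the same replicate number were not alike as pairs. Of 15 same-numbered pairs, 3 had correlated deviations over 0.1 (-0.387 to 0.249), and 2 of 15 arrays matched best to their own number. The check cannot decide whether same-numbered arrays shared an islet preparation, since cell type content also varied between arrays. Fga differences were 2.64 and 2.67 with the mean of its probe sets and 2.92 and 2.93 with 16 added to each intensity. Signal over background was not given, so dim probe sets such as Orm1 limit what can be read.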
